A study of Mus musculus with 3 samples.

Results

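Short interspersed elements (SINEs) are small retrotransposons that are copied by the machinery of other elements and have accumulated in large numbers in introns and near genes of the mouse genome. The 1193 regions described here are the Foxp4 peaks of mouse beige adipocytes whose centre lay in a SINE, by the repeat named in the deposited annotation. They are 7.08% (exact 95% interval 6.69 to 7.48%) of the 16856 Foxp4 peaks on chromosomes 1 to 19 of the mm10 assembly. Foxp4 is a forkhead transcription factor, and the peaks come from chromatin immunoprecipitation with sequencing (ChIP-seq).

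The groups were a Foxp4 ChIP library, a library for H3K27ac, the acetylation of histone H3 at lysine 27 found at active promoters and enhancers, and an input DNA library, which was not used here. Each group was 1 library of cultured cells from the C57BL/6 strain. Stromal-vascular cells of inguinal white fat were grown in 20% serum for 3 days and on to confluence, then induced for 48 h in 10% serum. The induction mix held troglitazone (5 µM) and dexamethasone (1 µM), with T3 at 50 nM, isobutylmethylxanthine at 0.5 mM and insulin at 5 µg/ml. For 6 more days the growth medium was given T3, insulin and troglitazone. The labels name an antibody for Foxp4 only, and give no number of animals or cultures. With 1 library a group no difference could be tested between conditions, so shares are given with 95% intervals that cover counting error only, and no p-value is given. Read numbers cannot be seen in peak lists, so depth is unknown, and a region outside a list is one without a call, not one shown to be unbound. An H3K27ac peak with its centre within 1000 bp of the transcription start site (TSS) was present at 6 of 8 adipocyte marker genes (Pparg, Cebpa, Plin1, Lipe, Lpl and Cd36, and not Adipoq or Fabp4). It was present at 1 of 6 beige markers (Ebf2, and not Ucp1, Cidea, Prdm16, Dio2 or Ppargc1a), 1 of 5 macrophage markers (Cd68), 0 of 4 endothelial markers and 0 of 4 skeletal muscle markers, against 26.2% of all protein-coding genes.

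Mouse SINEs fall into families of different origin. B1 elements, listed in the files under the name Alu, derive from the RNA of the signal recognition particle, B2 elements from a transfer RNA, and B4 elements join an ID-like and a B1-like part. ID elements descend from the small RNA gene Bc1. MIR elements are older and are shared with other mammals. B1, B2 and ID copies carry an internal promoter for RNA polymerase III, whose downstream part is called the B box. SINEs are best known in gene regulation as scattered copies that can hold binding sites and, at times, act as enhancers or insulators.

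The sequence under a member could be shown where a RefSeq promoter window (GRCm38.p6, the assembly of mm10, 300 bases a window) reached into it. This was so for 5 windows of 4 genes at 4 members. The 3 below are shown because most of the window lies inside a SINE Foxp4 peak, for Gm11457 with the peak centre inside the window. Capitals mark the letters of the B box motif GTTCNANNC on either strand, which 9.29% of the 31396 promoter windows of chromosomes 1 to 19 hold. The forkhead core TAAACA, also searched on both strands, is in 13.5% of those windows. None of the 3 windows below holds it, so no matches of the 2 motifs overlap in them. The window of the remaining gene, Gm32932, is not shown, since only 17 of its bases lay in a SINE Foxp4 peak. It held 2 forkhead core matches, starting at bases 10 and 85, both outside those 17 bases.
Gm11457, chr2:164763641-164763940, minus strand: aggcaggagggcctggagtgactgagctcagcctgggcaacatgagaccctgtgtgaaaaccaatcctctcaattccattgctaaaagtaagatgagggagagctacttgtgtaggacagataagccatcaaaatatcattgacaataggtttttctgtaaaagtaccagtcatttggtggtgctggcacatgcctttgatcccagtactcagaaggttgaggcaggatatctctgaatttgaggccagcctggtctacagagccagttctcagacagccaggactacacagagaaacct
1810013D15Rik, chr3:157925443-157925742, plus strand: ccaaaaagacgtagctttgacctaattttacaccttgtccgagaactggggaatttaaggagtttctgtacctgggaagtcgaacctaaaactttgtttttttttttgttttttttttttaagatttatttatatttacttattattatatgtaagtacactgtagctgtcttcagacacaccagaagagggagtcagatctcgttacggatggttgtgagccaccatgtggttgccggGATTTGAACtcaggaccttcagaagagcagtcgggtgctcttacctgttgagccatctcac
Gm51634, chr1:78356624-78356923, minus strand: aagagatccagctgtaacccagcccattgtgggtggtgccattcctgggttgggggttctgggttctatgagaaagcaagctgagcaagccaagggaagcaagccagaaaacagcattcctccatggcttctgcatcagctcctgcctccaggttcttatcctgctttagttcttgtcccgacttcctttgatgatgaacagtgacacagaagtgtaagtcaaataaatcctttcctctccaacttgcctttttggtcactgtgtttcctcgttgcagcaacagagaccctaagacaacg

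Of the Gm11457 window, 259 bases lay in a Foxp4 peak of score 21 whose centre, at position 164763743 of chromosome 2, was annotated as a B1_Mur4 element. It held no match to the B box letters. Of the 1810013D15Rik window, 272 bases lay in a wider Foxp4 peak (chromosome 3, 157925471 to 157926711) of score 41. That window held 1 match, GATTTGAAC on the opposite strand, starting at base 240 of the window. The centre of this peak, where a B3 element is named, lay 349 bp past the end of the window, so the window shows a flank of the peak and not the element at its centre. Of the Gm51634 window, 255 bases lay in a Foxp4 peak of score 21 (chromosome 1, 78356669 to 78357474) whose centre, 148 bp past the window, was annotated as B4A, and it held no B box match. A match describes letters only.

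SINEs held Foxp4 peaks close to their share of the genome. In the authors' deposited table the log2 ratio of observed to expected peaks in SINE sequence (197 Mb) was -0.033 for the Foxp4 list. The same authors' deposited table gave -0.769 for LINE and -0.263 for LTR retrotransposons, both other kinds of repeat, and 0.46 for introns outside repeats. For the H3K27ac list the authors' deposited table gave -0.219 for SINEs, -2.644 for LINEs and -1.547 for LTR elements. In both lists the SINE ratio was the one nearest to 0 of these 3 repeat classes. All 1193 SINE Foxp4 peaks belonged to the intron (657) or intergenic (536) class, since the annotation names a repeat only outside exons, promoters and gene ends. They made up 8.94% of intron Foxp4 peaks (interval 8.30 to 9.62%) and 7.05% of intergenic ones (interval 6.48 to 7.65%).

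The SINE share of Foxp4 peaks differed along the genome. It was highest on chromosome 11, with 108 of 1087 peaks (9.94%, interval 8.22 to 11.9%), and on chromosome 4, with 97 of 1076 (9.01%, interval 7.37 to 10.9%). It was lowest on chromosome 13, with 43 of 876 (4.91%, interval 3.57 to 6.56%), and on chromosome 3, with 48 of 922 (5.21%, interval 3.86 to 6.84%). The intervals of chromosomes 11 and 13 do not overlap, but these were picked as the highest and lowest of 19. With no adjustment for the number of chromosomes compared, this is a description only. The genome's SINE density per chromosome was not compared here.

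**Figure D1:**
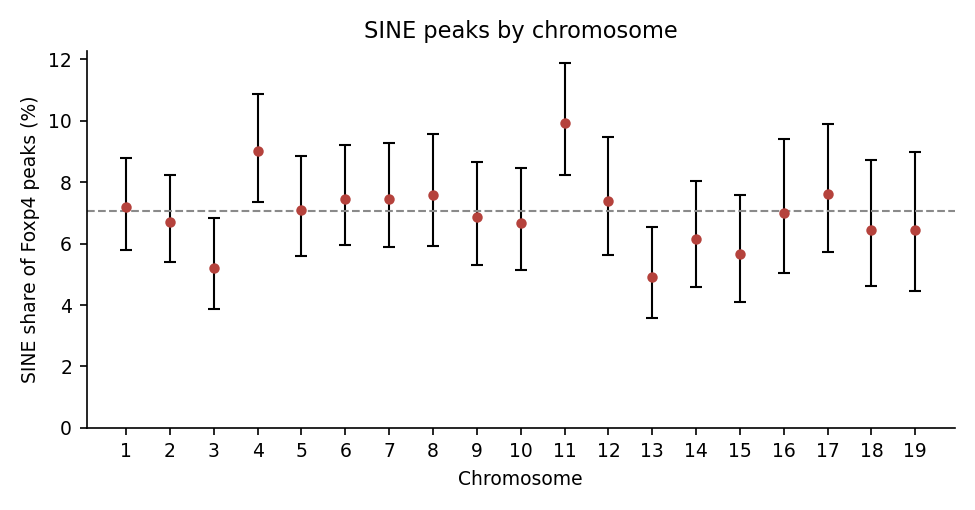
SINE share of Foxp4 peaks (%, y axis) on each of chromosomes 1 to 19 (x axis), with exact 95% intervals as bars and the share over all of them, 7.08%, as a dashed line. Chromosome 11 stands highest at 9.94% and chromosome 13 lowest at 4.91%.

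By family, B1 and B4 elements held about equal parts of the SINE Foxp4 peaks. B1 had 373 peaks (31.3%), B4 365 (30.6%), B2 295 (24.7%), MIR 116 (9.72%) and ID 39 (3.27%), with 3 in Deu elements and 2 in elements of a tRNA family. How much of the genome each family, or each named kind of element within it, covers was not compared here. To see whether this makeup was that of acetylated SINEs, it was set beside the 1085 H3K27ac peaks in SINEs of the same cells. B4 had a larger part of the Foxp4 peaks than of the H3K27ac peaks, 30.6% against 26.3%, a difference of 4.33 percentage points (interval 0.62 to 8.01). Leaving out the Foxp4 peaks at a few score values that recur through the list kept 299 Foxp4 SINE peaks. The B4 difference was then 1.16 points (interval -4.30 to 7.05), and this interval includes both 0 and 4.33. Whether the recurring scores had a part in the B4 difference was not tested. With only the higher-scoring 50% of both lists kept, the B4 difference was 5.64 points (interval -0.19 to 11.3). B1 had a smaller part, 31.3% of Foxp4 against 35.02% of H3K27ac peaks, but the interval of the difference, -7.62 to 0.11 points, includes 0. The B1 difference took the other sign, 1.10 points (interval -4.88 to 7.34), without the recurring scores, and was -6.52 points (interval -12.5 to -0.58) in the higher-scoring 50%. Over all peaks the interval also includes 0 for MIR, 9.72% against 12.3% (difference interval -5.14 to 0.03 points), for B2, 24.7% against 23.0% (-1.83 to 5.18 points), and for ID, 3.27% against 3.13% (-1.36 to 1.60 points).

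**Figure D2:**
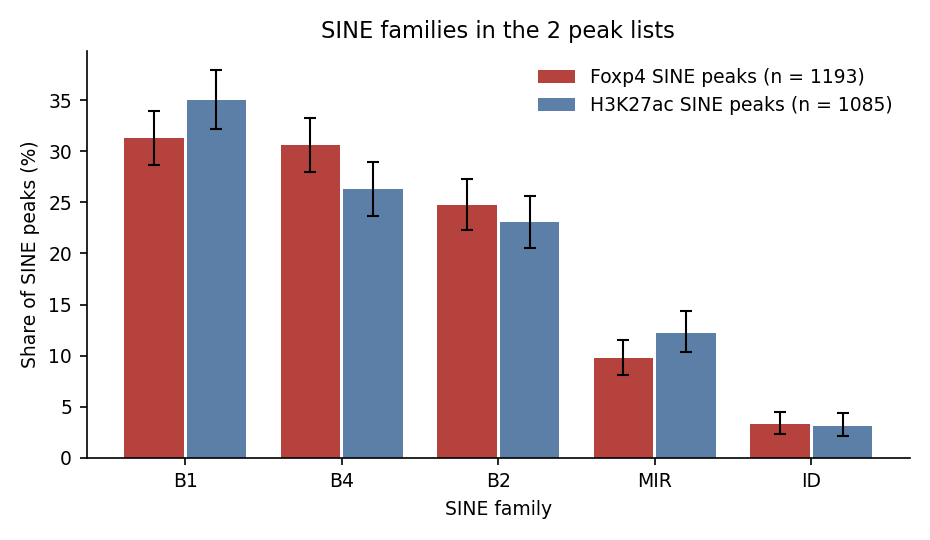
Share of SINE peaks (%, y axis) in each of 5 SINE families (x axis) for the Foxp4 list (left bars, n = 1193) and the H3K27ac list (right bars, n = 1085), with exact 95% intervals. B4 is the family whose Foxp4 bar stands clearest above its H3K27ac bar, 30.6% against 26.3%.

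The Foxp4 peaks fell on 36 named kinds of SINE. B4A, a B4 element, was the most frequent with 111 peaks, followed by the B2-family element B3 with 108, ID_B1 and RSINE1 of the B4 family with 96 each, and B3A with 89. The most frequent B1 kinds were B1_Mus1 with 57 and PB1D10 with 51, and the most frequent MIR kind was MIRb with 44. The kinds with Mm in their name (B1_Mm, B2_Mm1a, B2_Mm1t and B2_Mm2) held 117 peaks (9.81%), 68 of them B2_Mm2. Of the 36 kinds, B4A alone had a difference between the lists whose interval left out 0, with 9.30% of Foxp4 SINE peaks against 7.005% of H3K27ac SINE peaks (interval of the difference 0.04 to 4.55 points). With 36 kinds compared and no adjustment, 1 such interval is a description and nothing more.

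SINE peaks stood closer to genes than other Foxp4 peaks of introns and intergenic sequence. The median distance from the peak centre to the nearest TSS was 21.0 kb (quartiles 8.32 and 53.2 kb), against 31.6 kb for nonrepeat intron or intergenic peaks (quartiles 10.1 and 90.1 kb). For LINE peaks the median was 65.6 kb and for LTR peaks 41.7 kb. Within 10 kb of a TSS lay 29.1% of SINE peaks and 24.8% of nonrepeat peaks, a difference of 4.26 points (interval 1.60 to 7.03). Within 100 kb lay 87.5% of SINE peaks and 77.5% of nonrepeat peaks (difference 9.96 points, interval 7.80 to 11.9). Very close to the TSS the order turned round: the centres of 9 SINE peaks (0.75%, interval 0.35 to 1.43%) were within 1000 bp of a start, against 2.83% of nonrepeat peaks (difference -2.08 points, interval -2.58 to -1.34). Against all other Foxp4 peaks, which include the promoter class that no SINE peak can belong to, the share within 10 kb was 29.1% against 29.9%.

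SINE peaks were no more intronic than nonrepeat peaks, with 55.1% against 54.3% (difference 0.80 points, interval -2.20 to 3.78), while 34.3% of LINE and 31.2% of LTR peaks were intronic. Of the intronic SINE peaks, 34.7% (228 of 657) lay in a first intron, against 34.96% of the nonrepeat ones. The nearest gene was protein-coding for 85.7% of SINE peaks and for 80.3% of nonrepeat peaks (difference 5.34 points, interval 3.09 to 7.38). The H3K27ac peaks in SINEs stood nearer to genes than the Foxp4 peaks in SINEs did, with a median of 14.8 kb against the 21.0 kb of Foxp4.

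Families differed in their distance. B1 peaks were nearest, with a median of 17.4 kb (interval of the median 15.3 to 20.1 kb), then B2 with 21.1 kb (18.2 to 25.8 kb), B4 with 22.0 kb (18.5 to 25.3 kb), ID with 26.2 kb (17.4 to 46.3 kb) and MIR with 41.6 kb (21.8 to 55.3 kb). The intervals of B1 and MIR do not overlap, while those of B2, B4 and ID overlap each other. Within 10 kb of a TSS lay 34.6% of B1 peaks (interval 29.8 to 39.7%), 30.5% of B2 (25.3 to 36.1%) and 26.0% of B4 (21.6 to 30.8%). For MIR the share was 22.4% (interval 15.2 to 31.1%) and for ID 15.4% (6 of 39, interval 5.86 to 30.5%). B1 peaks were intronic in 59.0% of cases (interval 53.8 to 64.0%) and MIR peaks in 45.7% (36.4 to 55.2%), with intervals that overlap.

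**Figure D3:**
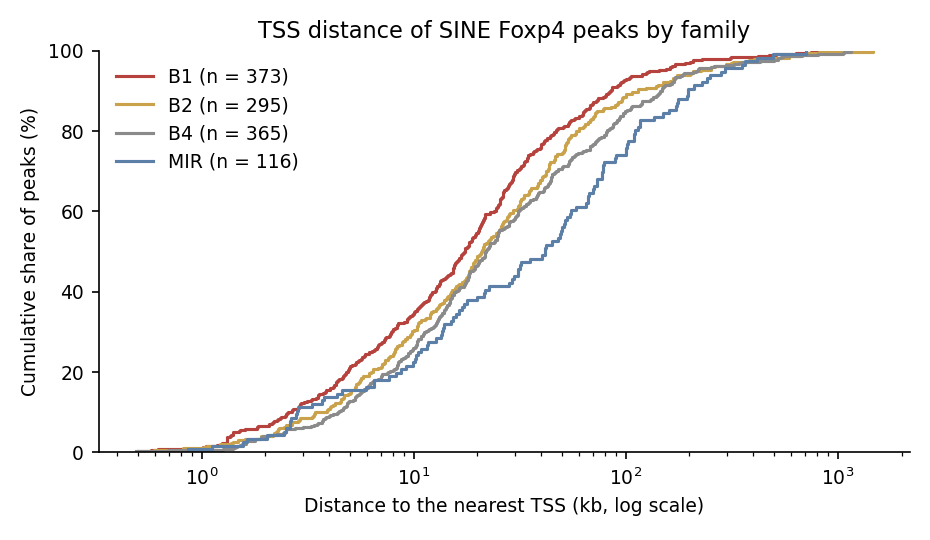
Cumulative share of SINE Foxp4 peaks (%, y axis) by distance to the nearest TSS (kb, log scale, x axis) for the 4 largest families. At the median the B1 line is nearest to a TSS, at 17.4 kb, and the MIR line farthest, at 41.6 kb. The lines do not keep this order at short distances, where the MIR line is not the lowest.

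The score that the authors' peak caller gave each peak, read here only within the Foxp4 list, had the same median in SINE peaks as elsewhere, while high scores were less frequent in SINE than in nonrepeat or LTR peaks. The median was 27 for SINE peaks (quartiles 25 and 34) and 27 for nonrepeat, LINE and LTR peaks alike. Scores over 41 were held by 42 SINE peaks (3.52%, interval 2.55 to 4.73%), against 5.84% of nonrepeat peaks (difference -2.32 points, interval -3.35 to -1.03) and 5.40% of LTR peaks (difference -1.88 points, interval -3.39 to -0.31). Against LINE peaks (3.82%) the interval of the difference, -1.61 to 1.12 points, includes 0. The highest SINE score was 74 of 1193 peaks, against 114 of 9420 nonrepeat, 130 of 1611 LTR and 205 of 1961 LINE peaks. Each of these is 1 peak, and the sets differ in size, so the maxima are not like for like. Most scores fell on 6 recurrent values, 21, 27, 34, 41, 49 and 57, which held 894 SINE peaks (74.9%, interval 72.4 to 77.4%) and 73.5% of nonrepeat peaks. The value 27 alone had 350 SINE peaks. SINE peaks had a median width of 352 bp, against 353 bp for nonrepeat peaks.

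**Figure D4:**
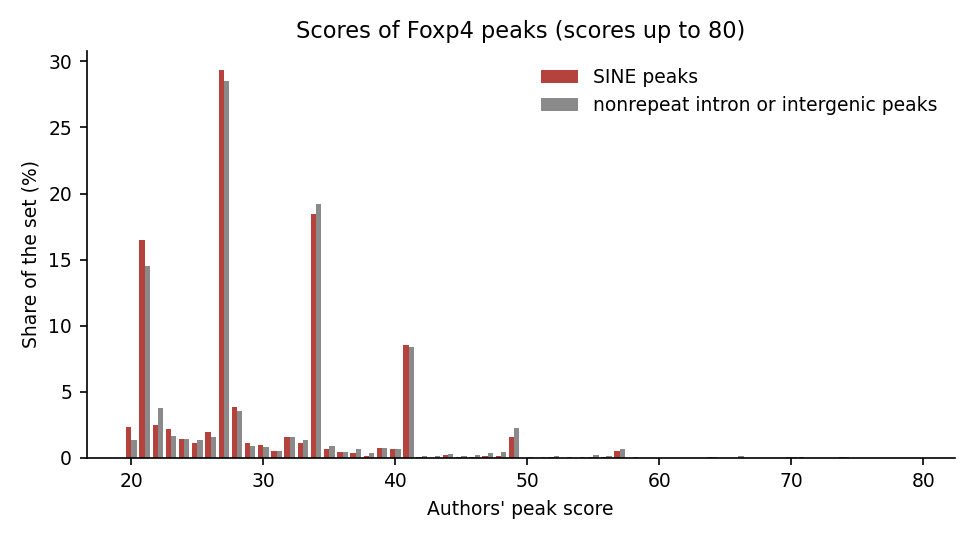
Share of peaks (%, y axis) at each authors' score up to 80 (x axis), for SINE peaks (left bars) and nonrepeat intron or intergenic peaks (right bars). Both sets pile up at the same 6 values, and 27 holds the most SINE peaks, 350.

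The highest-scoring SINE peaks were spread over families. The highest, with a score of 74, was in a B3 element of intergenic sequence on chromosome 10 (37773126 to 37773579), 402422 bp upstream of 4930591E09Rik. A MIRc peak of score 71 on chromosome 9 (35043657 to 35044041) lay 72879 bp upstream of 4930581F22Rik and 579 bp from an H3K27ac peak. A B2_Mm2 peak of score 70 on chromosome 1 (171074394 to 171074907) lay 9998 bp upstream of the microRNA gene Mir6546. A B4 peak of score 64 stood in intron 7 of Gpc6, a cell surface heparan sulfate proteoglycan gene, with Mir6239 as the nearest start (chromosome 14, 117909002 to 117909786). The next 6 all scored 57, a recurrent value.

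These 6 lay in intron 2 of Jph2, which encodes a junctophilin that ties the cell membrane to the calcium store, in intron 3 of Clip1, a microtubule plus-end protein gene, in intron 3 of Ipo7, a nuclear import receptor gene, in intron 2 of 5730455P16Rik, and upstream of Snx6, a sorting nexin gene, and of the transporter gene Mfsd4a. Their elements were MIR, B2_Mm2, PB1D10, B1_Mur4, ID_B1 and B4A in that order, so all 4 large families are among the top 10. None of the 10 overlapped an H3K27ac peak, and 10 peaks are too few to tell this from the 3.44% of all SINE peaks. The nearest such peak lay between 579 and 288014 bp away.

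To ask how far Foxp4 at SINEs fell in acetylated chromatin, overlap with H3K27ac was counted as at least 1 shared bp. It was found at 41 of 1193 SINE peaks (3.44%, interval 2.48 to 4.63%), where 8.24% of all Foxp4 peaks of chromosomes 1 to 19 overlapped. Against the other Foxp4 peaks (8.61%) the difference was -5.17 points (interval -6.17 to -3.90). Against nonrepeat intron or intergenic peaks (6.69%), the like class, it was -3.25 points (interval -4.29 to -1.96). SINE peaks overlapped more often than LINE peaks (0.87%, difference 2.57 points, interval 1.54 to 3.81). For LTR peaks (2.23%) the interval of the difference, -0.03 to 2.54 points, includes 0. No test stands behind these intervals, since the peaks are of 1 library each.

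The gap to nonrepeat peaks was wide near genes. Within 10 kb of a TSS, 16 of 347 SINE peaks (4.61%, interval 2.66 to 7.38%) overlapped H3K27ac, against 307 of 2339 nonrepeat peaks (13.1%, interval 11.8 to 14.6%). The 2 sets are not alike in distance within this class, since 9 of the SINE and 267 of the nonrepeat peaks lay within 1000 bp of a TSS. Overlap without those peaks was not counted. Between 10 and 100 kb the shares were 3.30% of SINE peaks (23 of 697, interval 2.10 to 4.91%) and 5.24% of nonrepeat peaks (interval 4.63 to 5.89%), and beyond 100 kb they were 1.34% (2 of 149, interval 0.16 to 4.76%) and 2.98%. Among peaks at the recurrent scores 1.79% of SINE and 3.55% of nonrepeat peaks overlapped, and among the other scores 8.36% (25 of 299, interval 5.48 to 12.1%) and 15.4% (interval 14.0 to 16.9%).

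**Figure D5:**
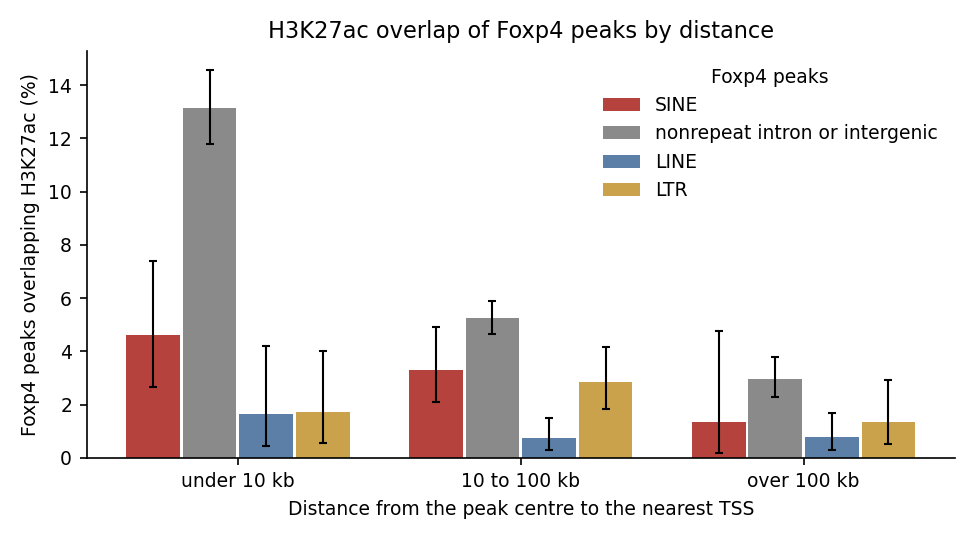
Share of Foxp4 peaks that overlap an H3K27ac peak (%, y axis) in 3 classes of distance to the nearest TSS (x axis), for SINE, nonrepeat, LINE and LTR peaks, with exact 95% intervals. Within 10 kb the SINE bar stands at 4.61% and the nonrepeat bar at 13.1%, with intervals that do not overlap. In this class 9 SINE and 267 nonrepeat peaks lie within 1000 bp of a TSS.

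At a wider range SINE peaks were about as near to acetylated chromatin as other Foxp4 peaks. An H3K27ac peak lay within 10 kb of 29.3% of SINE peaks (interval 26.8 to 32.0%), against 27.2% of all other Foxp4 peaks (26.5 to 27.9%), 26.1% of nonrepeat (25.3 to 27.05%), 9.89% of LINE and 17.9% of LTR peaks. Within 1000 bp the shares were 8.05% (interval 6.57 to 9.74%) of SINE and 11.1% (10.4 to 11.7%) of nonrepeat peaks. For the 1152 SINE peaks without overlap the median gap to the nearest H3K27ac peak was 30.2 kb (quartiles 9.14 and 92.8 kb). Another Foxp4 peak of any kind lay within 10 kb of 272 SINE peaks (22.8%, interval 20.4 to 25.3%) and of 21.7% of nonrepeat peaks, and another SINE Foxp4 peak lay within 10 kb of 26 (2.18%).

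The 41 acetylated SINE peaks comprised 13 B1, 11 B4, 9 B2, 6 MIR, 1 ID and 1 Deu peak. The share overlapping was 3.49% of B1 (interval 1.87 to 5.89%), 3.01% of B4 (1.51 to 5.33%), 3.05% of B2 (1.40 to 5.71%) and 5.17% of MIR peaks (1.92 to 10.9%), with intervals that overlap throughout. Of the 117 peaks in elements with Mm in their name 1 was among them (0.85%, interval 0.02 to 4.67%), an interval that includes the 3.44% of all SINE peaks. B1_Mus1 and B1_Mus2 had 3 of 57 (interval 1.10 to 14.6%) and 3 of 42 (interval 1.498 to 19.5%). The acetylated ones had a median score of 30 (interval of the median 28 to 34) and the others one of 27 (27 to 27). Their median width was 437 bp, against 350 bp for the others, and the part of width in the overlap was not tested. Of the 41, 24 were intergenic and 17 intronic, 23 had their centre inside the H3K27ac peak and 7 lay wholly within it. The H3K27ac partner was itself annotated to a SINE at 10 of them and to the same kind of element at 5.

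The highest-scoring acetylated SINE peak, of score 52, was in a MIRb element 13562 bp upstream of Baalc (chromosome 15, 38919727 to 38920968) and shared 550 bp with an H3K27ac peak of score 37. A PB1D10 peak of score 49 lay 16804 bp upstream of Slc1a5, a glutamine transporter gene, and shared 416 bp with an H3K27ac peak of score 65 (chromosome 7, 16764324 to 16764760). B3A peaks of score 41 lay in intron 7 of Tmem131l and 12981 bp upstream of Plek2, a pleckstrin gene, and one of score 39 lay in intron 3 of Ehd2, which encodes a protein of the caveolae that are abundant in fat cells. Others of the first 10 were near Mir3089 (ID_B1, 41), A330074K22Rik (MIRc, 41, with 8 bp shared) and Snord89 (RSINE1, 40, in intron 6 of Rnf149), and an ID element near Polr2e.

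The Polr2e peak, near the gene of an RNA polymerase II subunit, had a score of 41 and lay 5870 bp downstream of the start of Polr2e (chromosome 10, 80033527 to 80034052). The deposited annotation put it in intron 1 of a transcript that RefSeq gives to Bc1, the gene behind ID elements, which RefSeq places on chromosome 7 (144914470 to 144914623). It was the 1 SINE peak annotated to that transcript, and its intron class is uncertain for this reason.

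Among acetylated SINE peaks outside the first 10, several near fat or signalling genes were picked out after their values were seen. Medag, named for its role in mesenteric fat cell formation, had a B3 peak of score 35 that lay 21092 bp upstream, wholly inside an H3K27ac peak of score 72 and 2968 bp wide. Fzd2, a Wnt receptor gene, had a B1_Mus1 peak of score 37, 1821 bp upstream, that shared 53 bp with the H3K27ac peak of its promoter. At Hif3a, a hypoxia-inducible factor gene, a MIRc peak of score 34 lay wholly inside an H3K27ac peak of score 105. Por, which encodes the electron donor of cytochrome P450 enzymes, had a B2_Mm2 peak of score 20.

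The 9 SINE peaks within 1000 bp of a TSS all lay in introns downstream of the start, 8 in intron 1 and that of Soat2 in intron 2. The annotation names no repeat in its promoter class, which takes in sequence upstream of a start. This position is therefore at least in part set by the annotation. Nearest was Hps3, a gene of lysosome-related organelle formation, with an ID_B1 peak of score 39 at 488 bp. Slc30a6, a zinc transporter gene, followed at 501 bp (PB1D10, score 24), then the DNA repair glycosylase gene Neil2 at 578 bp (B1F, score 27), Intu, a planar polarity and cilium gene, at 581 bp (B3A, score 34) and Samm50, a gene of the mitochondrial outer membrane assembly complex, at 597 bp (B3A, score 34). Kxd1 had a B1F peak of score 24 at 621 bp. Soat2, a cholesterol esterification enzyme gene, had an ID_B1 peak of score 35 at 692 bp. Ttc25, a gene of motile cilia, had a B3 peak of score 41 at 821 bp, and Pstpip1, a cytoskeletal adaptor gene, a MIRb peak of score 27 at 865 bp. Of the 9, the peaks at Samm50 (738 bp shared, the whole peak) and Slc30a6 (170 bp shared) overlapped H3K27ac, and the Soat2 peak lay 377 bp from an H3K27ac peak.

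By nearest TSS the SINE peaks belonged to 1128 genes, of which 1068 had 1 peak and 60 had 2 or more. For 438 of these genes every assigned Foxp4 peak was a SINE peak, and 690 had other Foxp4 peaks too. The most were 4, at 5730507C01Rik on chromosome 12, all intergenic, between 180781 and 711441 bp from its start. Opa1, a gene of mitochondrial inner membrane fusion, had 3 intergenic peaks in B1_Mus2, B4 and MIRc elements with scores of 27, 34 and 32. The first lay 4608 bp upstream of its start, and the third lay 867 bp from an H3K27ac peak. Ackr3, an atypical chemokine receptor gene, had 3 downstream peaks in B4A, RSINE1 and B4 elements with scores of 27, 28 and 34. Galnt15, a mucin-type glycosyltransferase gene, had 3, in B2_Mm2 and MIRc elements, with scores of 27, 21 and 32. Tmem200b was the nearest start of 2 peaks, of scores 27 and 56, which lay in introns 11 and 8 of Epb41.

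Genes with a SINE Foxp4 peak often had an acetylated promoter. An H3K27ac promoter peak was present at 395 of the 966 protein-coding genes with a SINE peak (40.9%, interval 37.8 to 44.1%), against 36.2% of those with a nonrepeat intron or intergenic Foxp4 peak (34.8 to 37.6%), 31.8% of those with a LINE or LTR peak (29.9 to 33.9%), 20.2% of those with no Foxp4 peak (19.5 to 20.9%) and 26.2% of all 20665. The first 3 sets share genes, so their intervals are not independent.

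Gene lists of fat cell biology were then read for SINE Foxp4 peaks. Of all protein-coding genes 4.67% had one assigned, 37% had any Foxp4 peak, and 12.6% of those with any Foxp4 peak had a SINE one. Over the 14 lists, 27 of 283 genes (9.54%) had a SINE peak and 164 had any Foxp4 peak, so that 16.5% of the genes with any had a SINE one. None of the 27 peaks overlapped H3K27ac, and 3 counts of 27, the limit taken for a count of 0, are a share of 11.1%, above the 3.44% of all SINE peaks. An H3K27ac promoter peak was present at 17 of the 27 genes (63.0%), against 40.9% of all protein-coding genes with a SINE peak. The share also varied by list over all list genes, with or without a SINE peak. It was 17 of 26 in TGF beta and BMP signalling, 17 of 24 in insulin signalling and 14 of 23 in adipogenic factors. The highest was 15 of 20 in the circadian list, and the lowest were 0 of 12 endothelial and 0 of 14 skeletal muscle markers. Whether the 63.0% belongs to the genes with a SINE peak or to the lists was not tested. List genes without a SINE peak were not compared apart. The scores of 21 of the 27 peaks were recurrent ones, as were those of 74.9% of all SINE peaks. No list was tested.

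Of the TGF beta and BMP signalling genes, 5 of 26 had a SINE peak (19.2%, interval 6.55 to 39.4%) and 19 had any Foxp4 peak. They were Smad3 and Smad5, which carry the signal to the nucleus (B4, score 34, and PB1, score 27), the ligand gene Tgfb3 (MIR, 34), the coreceptor gene Tgfbr3 (PB1, 33) and the BMP receptor gene Bmpr2 (B1_Mur3, 21). Tgfb3 was only the nearest start of its peak, at 78478 bp. The annotation put that peak in intron 30 of 32 of a transcript whose gene was not looked up. The Smad3 and Tgfbr3 peaks lay 2429 and 2443 bp from an H3K27ac peak. Insulin signalling had 4 of 24, among them the insulin receptor gene Insr with a B2_Mm1t peak of score 34 in an intron (chromosome 8, 3273030 to 3273336), Rptor, a component of mTOR complex 1 (B4, 41), the kinase subunit gene Pik3cb (RSINE1, 27) and Foxo1, the forkhead factor restrained by insulin. Foxo1, with a B4A peak of score 41 in an intron 67945 bp downstream of its start (chromosome 3, 52336139 to 52336425), also counts among the 3 of 23 adipogenic factors and the 4 of 24 forkhead genes.

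The other adipogenic factors were Pparg, the master regulator of fat cell formation, with an ID4 peak of score 34 in intergenic sequence 13246 bp upstream (chromosome 6, 115347562 to 115347848), and Mlxipl, the carbohydrate response factor, with an ID_B1 peak of score 37 (chromosome 5, 135109203 to 135109573), 2497 bp downstream of the start and 1000 bp from an H3K27ac peak. The other forkhead genes were Foxj2 (PB1D10, 30), Foxn2 (B1_Mm, 27) and Foxk1 (B4A, 27), the last with its peak 550317 bp from the start and in an intron of another gene. Of the lipogenesis and fatty acid genes 3 of 22 had a SINE peak: Acaca, the enzyme of malonyl-CoA synthesis (B3A, 27), Lpin1, a phosphatidate phosphatase (B4A, 23), and Gpam, the first enzyme of triglyceride synthesis (MIRb, 23), whose peak lay 1719 bp from an H3K27ac peak.

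Lipid droplet genes had 1 of 16, Plin2, a lipid droplet coat protein gene (B1_Mm, 21), and the thermogenic list had 1 of 27, the calcium release channel gene Ryr2 (B3A, 41). Ucp1 itself had none. Extracellular matrix genes had 3 of 26, namely elastin, Eln (ID, 41), the laminin gene Lamc1 (B3A, 27) and the collagen gene Col6a1 (B4A, 27). The Col6a1 peak lay 40936 bp upstream of its start, in an intron of a transcript whose gene was not looked up. The circadian list had 1 of 20 (Rorb, B4A, 21), the progenitor list 1 of 18 (F3, the tissue factor gene, MIR3, 28) and the RNA polymerase III list 3 of 23, with the transcription factor genes Gtf3c5 (B1_Mus2, 41) and Gtf3a (B3, 27) and the polymerase subunit gene Polr3a (B1_Mur4, 21). Macrophage, endothelial and skeletal muscle markers had 0 of 12, 0 of 12 and 0 of 14, where 3 counts would be 25%, 25% and 21.4%. The lists are small. The interval of each includes the 4.67% of all genes, apart from the lists named next. Those are TGF beta and BMP signalling (6.55 to 39.4%), and insulin signalling and forkhead genes (both 4.74 to 37.4%). In these, 19 of 26, 17 of 24 and 13 of 24 genes had any Foxp4 peak, against 37% of all protein-coding genes. An excess of SINE peaks beyond that of Foxp4 peaks was not tested by list. With 14 lists compared and no adjustment, such intervals are a description and nothing more.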

How the data were processed

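ChIP-seq libraries of Foxp4, H3K27ac and input DNA, 1 each, were grouped by sample title, and the Foxp4 and H3K27ac peak lists were used. The submitters' processing notes name mm10, Bowtie2, Picard, SAMtools, MACS2 and deepTools 3.3.0 but no settings. Per the file headers, the deposited lists are narrowPeak files annotated with HOMER annotatePeaks.pl, which names the feature at the peak centre. The authors' deposited score is a whole number of at least 20, with no stated relation to a q-value, and the deposited distance to the TSS is in bp. The sources used here do not give the calling threshold or the use of the input.

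Members were Foxp4 peaks of chromosomes 1 to 19 with SINE as the second field of the detailed annotation, which left out 2 SINE peaks elsewhere. Nonrepeat peaks are intron or intergenic peaks with no repeat or CpG island named. Intervals of shares are exact (Clopper-Pearson), those of differences Newcombe's, and those of medians from binomial order statistics, all tested on simulated data. No test was run, because peaks of 1 library are not replicates. A score counted as recurrent where 100 or more Foxp4 peaks had it exceeding the number at each adjacent score more than 3-fold. Genes were matched by Entrez identifier to RefSeq GRCm38.p6 (20665 protein-coding genes). Of 287 list genes 283 matched, and Slc6a8, Bgn, Foxo4 and Foxp3, not found on those chromosomes, were left out.

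Named genes were those nearest to the 10 highest-scoring SINE peaks, to the 10 highest that overlap H3K27ac and to the 5 closest to a TSS with a score above the median, those with the most SINE peaks, and the list members. The 4 others within 1000 bp of a TSS were added. One of the genes so chosen is not reported here. The members and lists were chosen with earlier results of these data known. Alternatives changed the overlap rule, the peaks counted or compared with, the denominator, the TSS window and the assignment to genes. Versions were scipy 1.17.1, numpy 2.4.6, matplotlib 3.10.9 and pandas 2.3.3.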

Additional observations from a re-analysis of the deposited data

How the results depend on the processing

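Of 41 alternative values, 16 stayed within the interval of the reported one, or within 1.5 times a reported count, and 25 did not. The SINE share of Foxp4 peaks was 6.47% in the higher-scoring 50% of the list, 6.60% without the recurrent scores and 7.98% of intron and intergenic peaks. The H3K27ac overlap of SINE peaks was 1.93% where the peak centre had to lie in an H3K27ac peak and also where at least 50% of the peak had to be covered. It was 8.05% within 1000 bp and 8.36% without the recurrent scores. Its difference from other Foxp4 peaks was -11.7 points without the recurrent scores and -3.25 points against nonrepeat peaks. Against LINE and LTR peaks together it turned to 1.95 points, since those overlap H3K27ac in 1.48% of cases. An alternative chosen after seeing the data, SINE against nonrepeat peaks within 10 kb of a TSS, gave -8.51 points. Peaks within 1000 bp of a TSS, more frequent among nonrepeat peaks, were not left out of it. Without the recurrent scores the median score was 28 and the median width 361 bp, and against LINE and LTR peaks SINE peaks were 7 bp wider at the median. The share near a TSS was 8.97% within 3000 bp, and 36.5% within 10 kb without the recurrent scores. The difference of this share from other Foxp4 peaks was -7.12 points at 3000 bp, -3.69 in the higher-scoring 50%, -8.99 without the recurrent scores, 4.26 against nonrepeat peaks and 14.3 against LINE and LTR peaks. Without the recurrent scores the B1 difference, Foxp4 minus H3K27ac, was 1.10 points. The genes with a SINE peak numbered 533 in the higher-scoring 50%, 297 without the recurrent scores and 341 with the peak within 10 kb. Apart from what the construction of each alternative sets, the cause of these changes was not tested. In the higher-scoring 50%, ties were broken by position. No paired analysis was possible because each group has 1 library. Depth is unknown, which limits every absence.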
